A study of Homo sapiens with 6 samples.

Results

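Tetraspanins are proteins that cross the membrane in 4 passes and gather other membrane proteins into small domains at the cell surface and on internal vesicles. They carry no enzyme activity of their own. They act through their partners, among them laminin-binding integrins, immunoglobulin-family proteins and the sheddase ADAM10, and several are standard markers of extracellular vesicles. In colon epithelium and colon carcinoma they are studied for adhesion, migration and vesicle release. The members were the rows of the deposited gene table whose symbol was TSPAN followed by a number, together with CD9, CD37, CD53, CD63, CD81, CD82, CD151, ROM1, PRPH2, UPK1A and UPK1B. The rule found 33 genes of 60605. It used no measured value.

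The cells were SW480, a long-established line derived from a human colon adenocarcinoma, grown in DMEM with fetal bovine serum, penicillin and streptomycin. Lentivirus carried either TIPE, the common name of TNFAIP8, or no insert, and both cultures were kept in puromycin before RNA sequencing. There were 3 TIPE overexpressing libraries and 3 empty vector libraries of poly(A) RNA, and the comparison asks what overexpression of TIPE changes in the tumour cell. The promoter driving TIPE, and whether the infected cells were a pool or a clone, are not stated. Nothing in the labels ties the libraries of a group to separate infections, so p-values reflect how far these libraries vary, which may be technical variation.

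Libraries held 13957349 to 20345330 counts. A gene with no count may have had up to 3, equal to 0.147 to 0.215 CPM (counts scaled to the library total). TNFAIP8 had 62902 to 98811 counts in TIPE libraries, against 104 to 175 in vector libraries, which fits the labels. TIPE replicate 3 stood somewhat apart from its group, with a chi-square per gene of 7.17 and 7.64 against the other TIPE libraries, where the other pairs within a group had 2.24 to 3.62. Of 8 markers of colon epithelium 7 were measured, and CDX1 had 0 counts in every library. Their summed level was 1610 to 1660 FPKM (fragments scaled by exonic length and library total) in TIPE libraries and 1250 to 1340 FPKM in vector libraries. The keratins carried this sum, while the adhesion protein CDH1 was at 12.7 to 14.5 FPKM in TIPE libraries and 34.9 to 37.4 FPKM in vector libraries. In the edgeR test described below, CDX2 rose (log2 fold change 0.92). EPCAM fell (-0.20) with overlapping groups, and VIL1 did not pass (-0.10). The part of these differences in the tetraspanin values was not tested. The leukocyte markers summed to 0.34 to 0.78 FPKM in TIPE libraries and 0.48 to 0.60 FPKM in vector libraries, with PTPRC, CD3E and MS4A1 at 0 counts. CD14 held most of this sum, at a mean of 0.503 FPKM, and was tested but did not pass (log2 fold change 0.01, adjusted p = 0.985). The 6 fibroblast markers summed to 2.36 to 3.32 FPKM in TIPE libraries and 1.78 to 2.84 FPKM in vector libraries, with COL1A2 and COL3A1 at 0 counts and LUM holding most of the sum. The fibroblast marker PDGFRB, under the expression filter, had 65, 78 and 51 counts in TIPE libraries and 37, 23 and 22 in vector libraries, and rose in the test with no filter (log2 fold change 1.26, adjusted p = 3.16e-07). Its part in the tetraspanin values was not tested. Endothelial markers summed to at most 0.30 FPKM in any library, and urothelial and photoreceptor markers to at most 0.23 FPKM.

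Of the 33 tetraspanins, 20 had a mean of at least 0.5 FPKM over the 6 libraries and entered the test. Of these, 9 rose in TIPE libraries, 1 fell and 10 did not pass the threshold, an adjusted p under 0.05 by the quasi-likelihood test of edgeR with Benjamini-Hochberg adjustment over all tested genes, which gave every adjusted p below unless another tool is named. The 10 that passed in either direction were 10 of 20, where 41.5% of all genes passed. The members that rose were TSPAN5, TSPAN33, TSPAN32, CD81, CD63, TSPAN4, CD82, TSPAN17 and CD151, with log2 fold changes of 0.31 to 0.63. TSPAN13 was the member that fell, with a log2 fold change of -0.44. The share that rose was 45.0% of the tested members, against 20.9% of all 14205 genes tested, and the share that fell was 5.0%, against 20.7% of all genes. The 20 members had a median log2 fold change of 0.24, and all tested genes 0.00. On the log2(FPKM + 1) scale after all libraries were scaled to a common FPKM total, the median was 0.07 over the members and -0.106 over all genes, and 8 members rose and 3 fell. Of all genes that passed, 50.3% were higher by the counts and 24.3% after that rescaling.

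The FPKM values of the groups did not overlap for 14 of the 20 members. TIPE libraries lay above all vector libraries for 10 of them, against 19.0% of all genes tested, and below for 4, against 31.5%. All 10 members that passed the threshold were among the 14. No member passed the expression filter through 1 group alone. In bulk RNA, fewer cells that express a gene and less of its RNA per cell cannot be told apart.

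**Figure D1:**
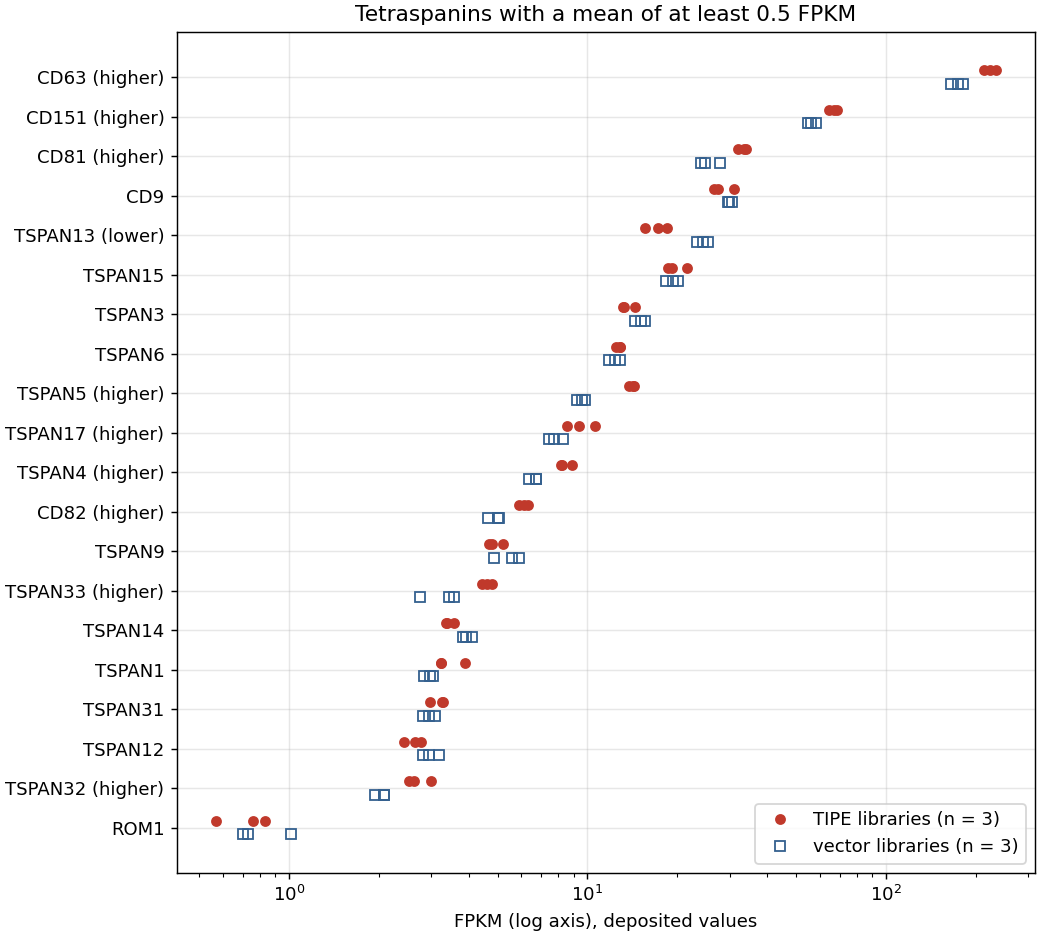
Deposited FPKM of the 20 tested tetraspanins on a log axis, one row per gene in order of mean level, with 3 TIPE libraries (filled circles) above 3 vector libraries (open squares). CD63 is the highest at a mean of 199 FPKM and ROM1 the lowest at 0.768 FPKM; "higher" and "lower" mark the 10 genes past the threshold.

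Fold changes in these libraries followed base composition, and most tetraspanins that rose were GC-rich. Among the 2823 most GC-poor genes the median log2 fold change was -0.21, and among the 2823 most GC-rich it was 0.19. The 9 members that rose had a median transcript GC content of 59.0% (44.0% in TSPAN5 to 64.9% in CD81), against 48.4% over all genes tested. In a GC-corrected fit, which removed the trend of each library on GC content and exonic length, 8 members rose, against 17.7% of 14115 genes, and 1 fell, against 16.8%. In that fit CD151 (log2 fold change 0.09, adjusted p = 0.136) and TSPAN32 (0.26, adjusted p = 0.0925) did not pass, while TSPAN6 did (0.25, adjusted p = 0.00133).

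**Figure D2:**
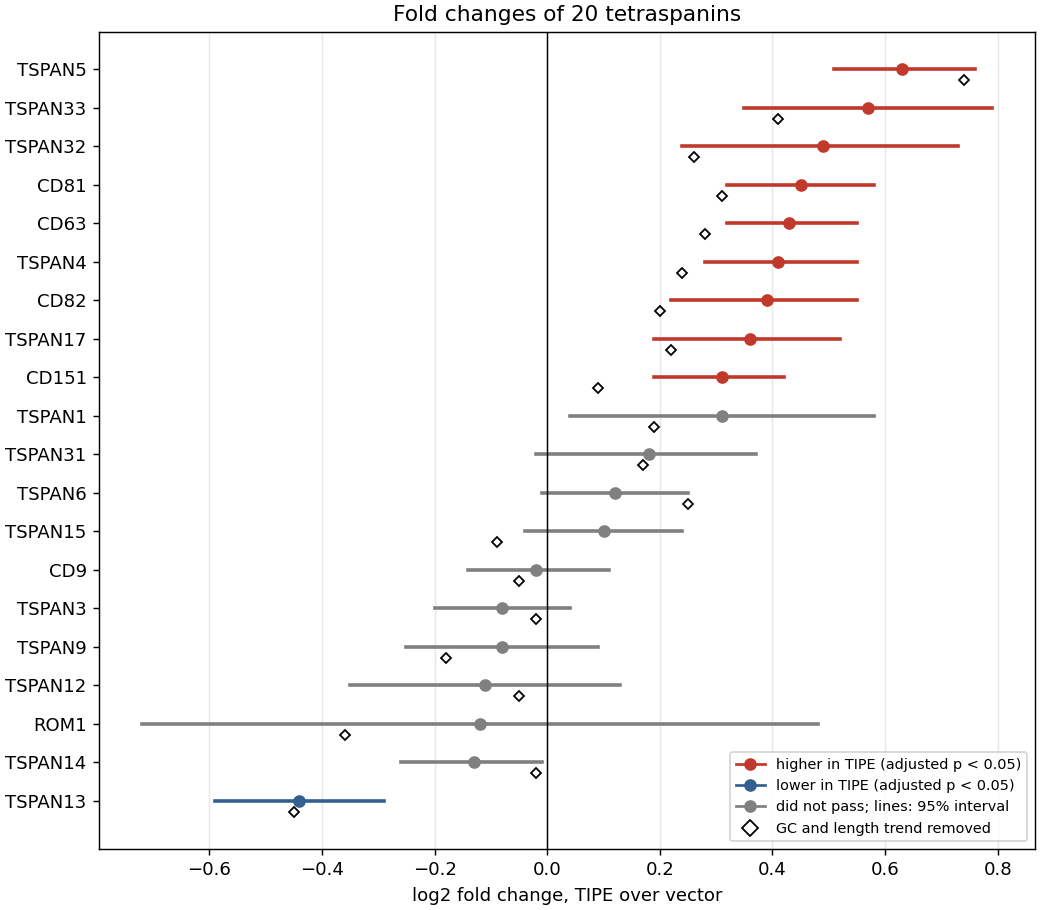
Log2 fold change of TIPE over vector for the 20 tested tetraspanins with 95% intervals; red genes rose, the blue gene fell and grey genes did not pass. Open diamonds give the value in the GC-corrected fit, which is 0.09 for CD151 against 0.31 without that step, and 0.74 for TSPAN5 against 0.63.

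**Figure D3:**
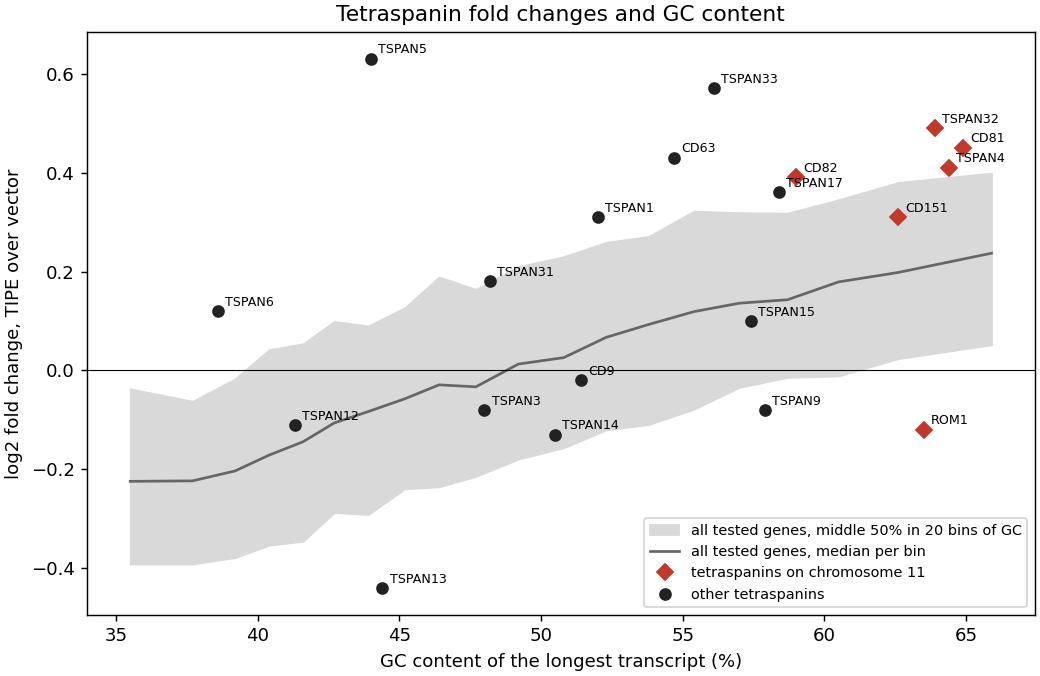
Log2 fold change of TIPE over vector (vertical axis) against the GC content of the longest transcript in percent, for the 20 tested tetraspanins, with red diamonds for chromosome 11. The grey line and band are the median and middle 50% of all tested genes in 20 bins. TSPAN5, at 44.0% GC and 0.63, and TSPAN13, at 44.4% GC and -0.44, lie on opposite sides of the band.

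The promoter sequences of the member that rose most (TSPAN5), the most abundant member (CD63) and the member that fell (TSPAN13) are printed for comparison of members that moved in opposite directions. Each runs from 250 bases before to 50 bases after the gene start, 5′ to 3′ on the gene's strand, from RefSeq on GRCh38.p14. Capitals mark the GC box GGGCGG on either strand, a sequence bound by SP-family factors, and overlapping matches were counted separately.
TSPAN5, chr4:98658562-98658861, minus strand: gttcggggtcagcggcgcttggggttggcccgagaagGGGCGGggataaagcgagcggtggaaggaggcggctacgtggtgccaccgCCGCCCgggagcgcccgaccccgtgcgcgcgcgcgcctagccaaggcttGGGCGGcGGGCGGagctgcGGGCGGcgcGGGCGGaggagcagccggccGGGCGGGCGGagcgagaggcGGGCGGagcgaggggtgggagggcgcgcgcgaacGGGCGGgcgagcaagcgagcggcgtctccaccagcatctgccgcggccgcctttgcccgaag
CD63, chr12:55728960-55729259, minus strand: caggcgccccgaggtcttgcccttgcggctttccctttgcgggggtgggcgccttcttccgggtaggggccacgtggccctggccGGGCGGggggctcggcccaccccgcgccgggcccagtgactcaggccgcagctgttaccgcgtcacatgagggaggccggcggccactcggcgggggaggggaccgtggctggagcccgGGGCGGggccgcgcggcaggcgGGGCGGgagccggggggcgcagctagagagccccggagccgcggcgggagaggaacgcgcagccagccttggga
TSPAN13, chr7:16753505-16753804, plus strand: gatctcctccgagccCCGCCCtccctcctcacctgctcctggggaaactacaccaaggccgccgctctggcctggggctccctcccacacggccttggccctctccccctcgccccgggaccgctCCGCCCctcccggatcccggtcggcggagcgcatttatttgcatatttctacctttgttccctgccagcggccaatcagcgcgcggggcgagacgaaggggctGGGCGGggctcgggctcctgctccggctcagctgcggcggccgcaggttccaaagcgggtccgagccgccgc

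The TSPAN5 window held 10 matches, the CD63 window 3 and the TSPAN13 window 3. The RefSeq starts of TSPAN5 and TSPAN13 coincided with the 5′ ends of the deposited genes, and that of CD63 lay 698 bases inside the deposited gene. RefSeq windows were matched for 25 of the 33 members, not for CD37, CD81, CD151, TSPAN3, TSPAN7, TSPAN9, TSPAN18 and TSPAN32. At least 1 GC box was found in all 6 matched members that rose, in TSPAN13, in 3 of the 8 that did not pass and in 3 of the 10 that were not tested. Among the 27305 RefSeq promoters of the same length, 44.6% held one. A TATAAA match on either strand was found in none of the 15 matched members that were tested, against 12% of all promoters. The box CAGGTG on either strand, bound by SNAIL-family repressors, was found in TSPAN33 and TSPAN13 among the 15 matched members that were tested. It was also found in 6 of the 10 that were not tested. Of all 25 matched members 32.0% held it, against 20.6% of all promoters. A match describes the letters in the window and was not tested as a binding site.

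CD63, CD81, CD82 and CD151 all rose in TIPE libraries, by 1.24-fold to 1.37-fold, while CD9 did not pass the threshold. That was 4 of 5, where 20.9% of all genes tested rose. In the GC-corrected fit 3 of the 5 rose, against 17.7% of all genes in that fit. The median log2 fold change of the 5 was 0.39, and 0.2 in the GC-corrected fit. Together these 5 genes are the tetraspanins best known at the cell surface and on extracellular vesicles. They made up 74.6% ± 0.322 of the summed tetraspanin FPKM in TIPE libraries and 70.6% ± 0.634 in vector libraries (SD, n = 3 each). CD63 (ENSG00000135404, hg38, chromosome 12, 55725323 to 55729707), which resides in late endosomes and lysosomes and is sorted into exosomes, was at 214, 224 and 233 FPKM in TIPE libraries, against 181, 166 and 174 FPKM in vector libraries. All TIPE libraries were above all vector libraries. Its log2 fold change was 0.43 (SE 0.06, adjusted p = 4.63e-06), and 0.28 in the GC-corrected fit (adjusted p = 0.000252). CD63 alone made up 46.6% ± 0.536 of tetraspanin FPKM in TIPE libraries and 42.2% ± 1.20 in vector libraries. An antisense gene at 4.71 FPKM shares 237 bases of exon with CD63.

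CD81 (ENSG00000110651, chromosome 11, 2376177 to 2397397), a partner of the immunoglobulin-family protein IGSF8 and an entry receptor for hepatitis C virus, was at 32.1, 33.5 and 34.1 FPKM in TIPE libraries. In vector libraries it was at 24.0, 24.9 and 27.7 FPKM, below every TIPE library. The log2 fold change was 0.45 (SE 0.06, adjusted p = 9.14e-06), and 0.31 in the GC-corrected fit (adjusted p = 0.000176).

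CD151 (ENSG00000177697, chromosome 11, 832887 to 839831), the closest partner of the laminin-binding integrins, was at 66.8, 64.4 and 68.3 FPKM in TIPE libraries and at 54.97, 56.2 and 58.1 FPKM in vector libraries. The groups did not overlap, and the log2 fold change was 0.31 (SE 0.05, adjusted p = 0.000131). That call was lost in the GC-corrected fit, as given above. CD151 also shares 257 bases of exon with POLR2L on the opposite strand, at a mean of 56.5 FPKM, and the strand setting of the counting is not stated.

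CD82 (ENSG00000085117, chromosome 11, 44564427 to 44620358), known as a suppressor of metastasis, was lower in level, at 6.15, 5.88 and 6.30 FPKM in TIPE libraries and 5.06, 4.66 and 5.01 FPKM in vector libraries. Its groups were also separate, with a log2 fold change of 0.39 (SE 0.08, adjusted p = 0.000648). The value was 0.20 in the GC-corrected fit (adjusted p = 0.0442).

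CD9 (ENSG00000010278, chromosome 12, 6199715 to 6238271), which shares partners with CD81 and is a surface and exosome marker, was at 26.5, 27.4 and 30.9 FPKM in TIPE libraries and at 29.8, 29.6 and 30.6 FPKM in vector libraries. TIPE replicates 1 and 2 were below the vector libraries and TIPE replicate 3 was above them. The log2 fold change was -0.02, with a 95% interval of -0.14 to 0.11 (adjusted p = 0.842). The ratio of CD63 over CD9 FPKM was 8.07, 8.19 and 7.53 in TIPE libraries and 6.08, 5.60 and 5.69 in vector libraries. The ratio of CD81 over CD9 was 1.21, 1.22 and 1.10 in TIPE libraries and 0.806, 0.839 and 0.906 in vector libraries. Neither ratio overlapped between the groups, whereas CD63 over CD81 did, at 6.67 to 6.84 in TIPE libraries and 6.29 to 7.54 in vector libraries.

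**Figure D4:**
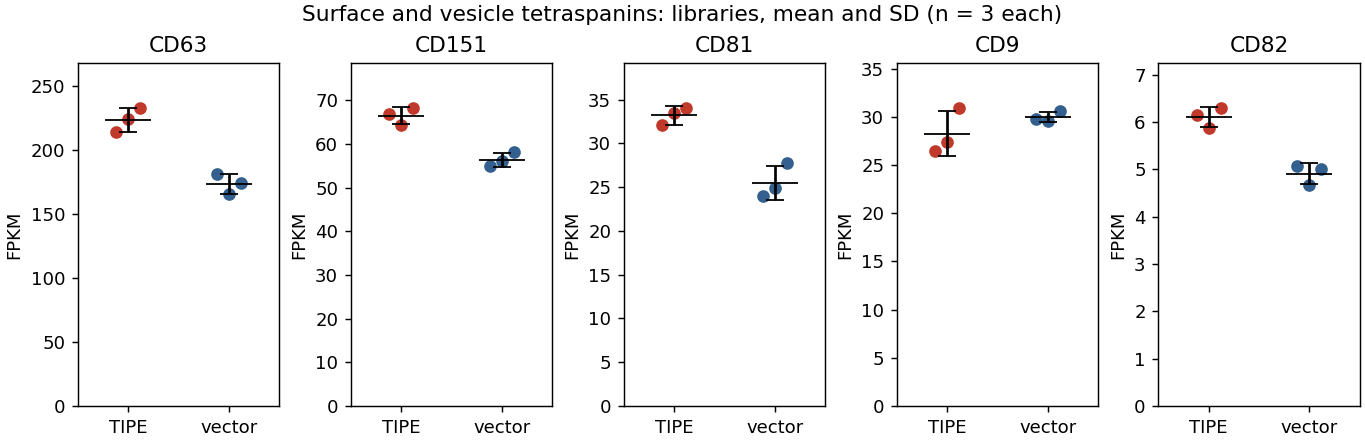
FPKM of CD63, CD151, CD81, CD9 and CD82 (vertical axes from 0, each gene on its own scale) in TIPE and vector libraries; points are libraries, and the black marks are the mean and SD of 3. The groups are separate for every gene but CD9, whose means were 28.3 FPKM in TIPE and 30.0 FPKM in vector libraries.

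The TspanC8 members TSPAN5, TSPAN10, TSPAN14, TSPAN15, TSPAN17 and TSPAN33 have 8 cysteines in their large extracellular loop, bind ADAM10, and govern its exit from the endoplasmic reticulum and which substrates it cuts. Of the 5 that were tested, 3 rose (TSPAN5, TSPAN17 and TSPAN33) and 2 did not pass (TSPAN14 and TSPAN15), a share that rose of 60.0%, against 20.9% of all genes tested. TSPAN10 had 8, 13 and 3 counts in TIPE libraries and 7, 8 and 5 in vector libraries and was not tested. The 6 genes summed to 51.5 ± 0.594 FPKM in TIPE libraries and 43.9 ± 0.987 FPKM in vector libraries (SD, n = 3 each).

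TSPAN5 (ENSG00000168785, chromosome 4, 98470367 to 98658611), a TspanC8 member linked to ADAM10 cleavage of Notch, had the largest increase of the family. It was at 13.8, 14.2 and 14.3 FPKM in TIPE libraries, against 9.58, 9.20 and 9.85 FPKM in vector libraries, a log2 fold change of 0.63 (SE 0.06, adjusted p = 6.09e-08). The rise was 0.74 in the GC-corrected fit, and it passed under every one of the 18 alternatives, with adjusted p of at most 0.000743. TSPAN33 (ENSG00000158457, chromosome 7, 129144707 to 129169699), also known from activated B cells, was at 4.61, 4.79 and 4.44 FPKM in TIPE libraries and 3.44, 3.57 and 2.74 FPKM in vector libraries. Its groups were separate, with a log2 fold change of 0.57 (SE 0.11, adjusted p = 0.000192), and 0.41 in the GC-corrected fit (adjusted p = 0.00528). Without that correction, TSPAN5 and TSPAN33 were the only tested members past a log2 fold change of 0.5 in either direction. Of all genes tested, 10.2% reached that size with a call.

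TSPAN17 (ENSG00000048140, chromosome 5, 176647387 to 176659054), the closest relative of TSPAN5, was at 10.6, 9.37 and 8.52 FPKM in TIPE libraries and 7.42, 7.72 and 8.27 FPKM in vector libraries. The lowest TIPE library was just above the highest vector library. The log2 fold change was 0.36 (SE 0.08, adjusted p = 0.00104). It was 0.22 in the GC-corrected fit (adjusted p = 0.0200), and the call was lost at a common FPKM total (0.19, adjusted p = 0.0877).

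TSPAN15 (ENSG00000099282, chromosome 10, 69451465 to 69507666), which directs ADAM10 to N-cadherin, was the most abundant TspanC8 member. It was at 18.6, 19.3 and 21.5 FPKM in TIPE libraries and 18.3, 20.2 and 19.4 FPKM in vector libraries, and the groups overlapped (log2 fold change 0.10, 95% interval -0.04 to 0.24, adjusted p = 0.256). TSPAN14 (ENSG00000108219, chromosome 10, 80454166 to 80533124) was at 3.58, 3.35 and 3.38 FPKM in TIPE libraries and 3.92, 3.84 and 4.11 FPKM in vector libraries. Every TIPE library was below every vector library on this scale, but the log2 fold change of -0.13 did not pass (adjusted p = 0.0873).

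The makeup of the TspanC8 group also differed between the cultures. TSPAN5 took 27.4% ± 0.461 of TspanC8 FPKM in TIPE libraries and 21.7% ± 0.952 in vector libraries. TSPAN15 took 38.4% ± 2.53 in TIPE libraries and 43.9% ± 1.21 in vector libraries, and TSPAN14 took 6.67% ± 0.276 in TIPE libraries and 9.01% ± 0.344 in vector libraries. None of these 3 shares overlapped between the groups. TSPAN33 took 8.96% ± 0.434 in TIPE libraries and 7.40% ± 1.07 in vector libraries, also without overlap. TSPAN17 took 18.4% ± 2.17 and 17.8% ± 0.743, with overlap. All are parts of the same sum, so the shares are not independent of each other. TSPAN5 over TSPAN14 was 3.85, 4.24 and 4.23 in TIPE libraries and 2.44, 2.40 and 2.40 in vector libraries.

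Their partner ADAM10 was lower in TIPE libraries. It was at 4.92, 4.71 and 4.93 FPKM in TIPE libraries and 6.06, 6.61 and 5.82 FPKM in vector libraries, with a log2 fold change of -0.28 (SE 0.06, adjusted p = 0.000832). TspanC8 FPKM over ADAM10 FPKM was 10.4, 10.9 and 10.6 in TIPE libraries and 7.06, 6.74 and 7.63 in vector libraries. In the GC-corrected fit ADAM10 was at 0.02 and did not pass (adjusted p = 0.766). ADAM17, a related sheddase that associates with CD9, had a value of -0.36 on the log2 scale (adjusted p = 0.000352), and one of -0.11 in the GC-corrected fit (adjusted p = 0.202).

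**Figure D5:**
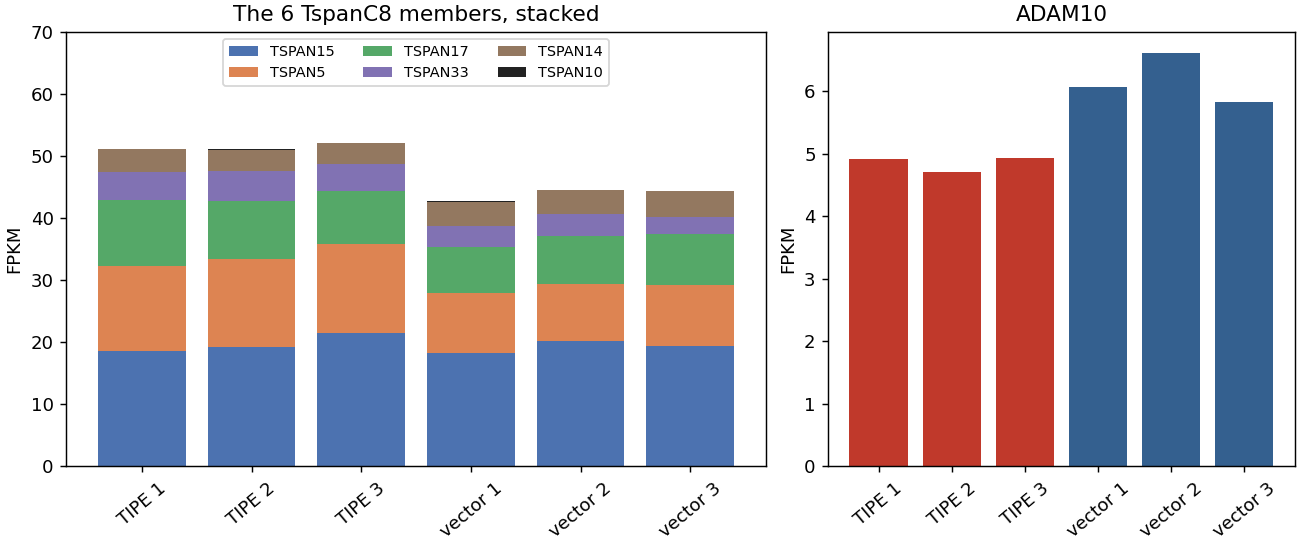
Left, stacked FPKM of the 6 TspanC8 genes in each library, from 51.1 to 52.2 in TIPE libraries and 42.8 to 44.6 in vector libraries. Right, FPKM of ADAM10, from 4.71 to 4.93 in TIPE libraries (red) and 5.82 to 6.61 in vector libraries (blue).

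TSPAN13 (ENSG00000106537, chromosome 7, 16753755 to 16784536), a member described as a modulator of a voltage-gated calcium channel, was the fifth most abundant tetraspanin and the 1 that fell. It was at 15.6, 17.2 and 18.4 FPKM in TIPE libraries, against 25.3, 24.5 and 23.3 FPKM in vector libraries. The groups were well apart, and the log2 fold change was -0.44 (SE 0.07, adjusted p = 5.18e-05). It was -0.45 in the GC-corrected fit (adjusted p = 2.97e-05), and the fall passed under all 18 alternatives. TSPAN13 made up 3.56% ± 0.182 of tetraspanin FPKM in TIPE libraries and 5.92% ± 0.283 in vector libraries. The ratio of TSPAN13 over TSPAN6 FPKM was 1.34 ± 0.0905 in TIPE libraries and 1.98 ± 0.00428 in vector libraries (SD, n = 3 each).

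Of the 8 members TSPAN1, TSPAN2, TSPAN4, TSPAN8, TSPAN9, TSPAN11, TSPAN16 and TSPAN18, only TSPAN1, TSPAN4 and TSPAN9 were tested, and TSPAN4 rose. That was 1 of 3, where 20.9% of all genes tested rose. TSPAN4 (ENSG00000214063, chromosome 11, 842812 to 867116), which drives the formation of migrasomes on the trailing fibres of migrating cells, was at 8.21, 8.13 and 8.85 FPKM in TIPE libraries and 6.72, 6.71 and 6.39 FPKM in vector libraries. The values were separate, with a log2 fold change of 0.41 (SE 0.07, adjusted p = 3.95e-05), and 0.24 in the GC-corrected fit (adjusted p = 0.00618). TSPAN1 averaged 3.45 ± 0.390 FPKM in TIPE libraries and 2.95 ± 0.0971 FPKM in vector libraries (SD, n = 3 each) and did not pass (log2 fold change 0.31, adjusted p = 0.0593). It passed without TIPE replicate 1 (0.37, 0.0459) and without TIPE replicate 3 (0.36, 0.0309), each pair being the log2 fold change and adjusted p, while without TIPE replicate 2 it had 0.19 and an adjusted p of 0.339. Leaving out a vector library gave 0.27 to 0.32, and it did not pass. TSPAN9, best studied in platelets, had a log2 fold change of -0.08 with a 95% interval of -0.25 to 0.09.

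TSPAN32 (ENSG00000064201, chromosome 11, 2301997 to 2318204), a tetraspanin of blood cells, was at 3.0, 2.63 and 2.53 FPKM in TIPE libraries and 1.95, 2.08 and 2.09 FPKM in vector libraries. The log2 fold change was 0.49 (SE 0.12, adjusted p = 0.00223). TSPAN32 shares 141 bases of exon with C11orf21 on the opposite strand, at a mean of 2.55 FPKM, so reads there may not be told apart. The leukocyte tetraspanins CD37 and CD53 were near 0, with 1 to 12 and 0 to 1 counts in TIPE libraries. In vector libraries they had 4 to 15 and 0 counts. The leukocyte markers given above were also near 0, except CD14, which was low but passed the expression filter.

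TSPAN3, TSPAN6, TSPAN12 and TSPAN31 did not pass. TSPAN3 averaged 13.6 ± 0.673 FPKM in TIPE libraries and 15.1 ± 0.575 FPKM in vector libraries, and its log2 fold change was -0.08 with a 95% interval of -0.20 to 0.04. TSPAN6 averaged 12.7 ± 0.214 FPKM in TIPE libraries and 12.3 ± 0.516 FPKM in vector libraries, with a log2 fold change of 0.12 and an interval of -0.01 to 0.25. TSPAN12, a coreceptor for Norrin with Frizzled-4, had a log2 fold change of -0.11 with an interval of -0.35 to 0.13. TSPAN31 had one of 0.18 with an interval of -0.02 to 0.37, but 1369 bases of its exons overlap CDK4 on the opposite strand, which is at 53.0 FPKM.

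ROM1, which shapes the rims of photoreceptor discs, had 21 to 27 counts in TIPE libraries and 21 to 31 in vector libraries, and a log2 fold change of -0.12 with an interval of -0.72 to 0.48. ROM1 shares 618 bases of exon with EML3 on the opposite strand. Its partner PRPH2 and the uroplakins UPK1A and UPK1B, which build the plaques of bladder urothelium, had 0 to 4 counts in any library.

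The 13 members that were not tested reached at most 38 counts and 0.49 FPKM in any library. TSPAN18 had 0 counts in all 6. TSPAN2, a myelin-associated member, had 5, 10 and 13 counts in TIPE libraries and 24, 14 and 24 in vector libraries. Tested with no filter, TSPAN2 had a log2 fold change of -1.12 (SE 0.39, adjusted p = 0.0221), where 9.93% of 29836 genes fell. The FPKM of the groups overlapped, and the call was lost in DESeq2 (adjusted p = 0.111), without TIPE replicate 1 or 2 (0.159 and 0.0842) and without vector replicate 1 or 3 (0.119 and 0.144). TSPAN8, a surface protein linked to colon carcinoma spread, was scarce in these cells, with 5 to 14 counts in TIPE libraries and 10 to 12 in vector libraries.

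The members lie on 13 chromosomes, with 7 on chromosome 11 and 7 on chromosome 12. On chromosome 12, 4 were tested and CD63 rose, while CD9, TSPAN9 and TSPAN31 did not pass. Of the 7 on chromosome 11, 6 were tested and 5 rose (CD151, TSPAN4, TSPAN32, CD81 and CD82), where 25.2% of the 808 tested genes of that chromosome rose and 18.8% fell. In the GC-corrected fit, 3 of the 6 rose, against 17.7% of all genes in that fit. The tested members there have a median GC content of 63.7%. Of the 14 tested members on other chromosomes, 4 rose and 1 fell. These shares were 28.6% and 7.14%, against 20.9% and 20.7% of all genes. In the GC-corrected fit 5 of those 14 rose. CD151 and TSPAN4 are neighbours 2.98 kb apart, and TSPAN32 and CD81 lie 58.0 kb apart.

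Genes around some members also moved. Of all tested genes, 20.9% rose and 20.7% fell. Within 500 kb of TSPAN4, and likewise of CD151, 14 of 31 tested genes that are no tetraspanins rose and none fell, with a median log2 fold change of 0.27, or 0.07 in the GC-corrected fit. Within 500 kb of CD81, 4 of 7 rose and none fell (median 0.51, or 0.31 in the GC-corrected fit). Around TSPAN13, 1 of 4 rose and 2 fell, with a median of -0.53, or -0.4 in the GC-corrected fit. Around TSPAN33, by contrast, 2 of 14 rose and 4 fell (median -0.17), and around TSPAN5 none of 3 rose and 1 fell (median -0.06). Near TSPAN10 and CD37, members that were not tested, 23 of 40 and 16 of 30 genes rose and none fell. The median there was 0.27 for each, or 0.1 and 0.09 in the GC-corrected fit. The part of neighbouring genes in the tetraspanin values was not tested.

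Of 48 listed partners of tetraspanins, 39 were tested, of which 9 rose, 14 fell and 16 did not pass, with a median log2 fold change of 0.02. The shares were 23.1% and 35.9%, against the 20.9% and 20.7% of all genes. At a common FPKM total, 3 partners rose and 19 fell, beside 1310 and 4089 of all genes. Of the 5 laminin-binding integrin subunits, 2 rose and 1 fell. ITGA7 was at 9.88, 9.19 and 9.11 FPKM in TIPE libraries and 5.85, 6.19 and 5.65 FPKM in vector libraries (log2 fold change 0.74, adjusted p = 3.97e-08). ITGA3, the main partner of CD151, had a value of -0.46 on the log2 scale (adjusted p = 2.92e-05). ITGB4 had one of 0.21 (adjusted p = 0.0244), with overlapping groups, and it passed under only 7 of the 18 alternatives. Among others, its call was lost without vector replicate 1 or 2 (0.0810 and 0.146) and without TIPE replicate 1 or 2 (0.0967 and 0.131). It was also lost in the GC-corrected fit (0.450) and at a common FPKM total (0.572). The common chain ITGB1 and the abundant ITGA6 had -0.05 and -0.03 and did not pass, although ITGB1 rose in the GC-corrected fit (0.21, adjusted p = 0.00192).

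Among 9 tested surface partners 2 rose and 5 fell, which is 22.2% and 55.6%, against 20.9% and 20.7% of all genes. IGSF8 and PTGFRN, immunoglobulin-family partners of CD9 and CD81, moved apart. IGSF3, listed with them, did not pass (log2 fold change 0.07, adjusted p = 0.804), and CD101 was under the expression filter. IGSF8 was at 4.61, 5.37 and 5.28 FPKM in TIPE libraries and 3.50, 3.07 and 3.87 FPKM in vector libraries (log2 fold change 0.63, adjusted p = 0.000201, and 0.39, adjusted p = 0.0101, in the GC-corrected fit). PTGFRN was at 5.14, 4.78 and 4.86 FPKM in TIPE libraries and 7.44, 6.83 and 7.11 FPKM in vector libraries (-0.46, adjusted p = 2.08e-05). The ratio of IGSF8 over PTGFRN was 1.04 ± 0.122 in TIPE libraries and 0.488 ± 0.0498 in vector libraries (SD, n = 3 each). HBEGF, a growth factor precursor bound by CD9, had a value of 0.51 on the log2 scale (adjusted p = 0.000130), and CLDN7, a claudin that joins EPCAM and tetraspanins, one of -0.72 (adjusted p = 0.000207).

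Of 21 tested genes of vesicle budding and secretion, 4 rose and 5 fell, with a median log2 fold change of 0.05. These shares of 19.0% and 23.8% were near those of all genes, 20.9% and 20.7%. RAB27A, a GTPase that docks multivesicular bodies for exosome release, was at 3.0, 2.52 and 3.11 FPKM in TIPE libraries and 4.47, 4.64 and 4.49 FPKM in vector libraries. Its log2 fold change was -0.60 (SE 0.09, adjusted p = 1.94e-05). The endosomal sorting proteins STAM and HGS had log2 fold changes of -0.43 (adjusted p = 0.000130) and 0.25 (adjusted p = 0.00291), and the GTPase ARF6 had one of -0.30 (adjusted p = 0.00116). The call of HGS was lost in limma on log2(FPKM + 1) (0.17, adjusted p = 0.0727), and its groups overlapped. ALIX (PDCD6IP) fell by 0.16 on the log2 scale, which did not pass in the GC-corrected fit (adjusted p = 0.523), while TSG101 and syntenin (SDCBP) had 0.09 and 0.02 and did not pass.

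Beside TSPAN12, the Norrin receptor FZD4 and its ligand NDP were under the expression filter, the coreceptor LRP6 had a value of -0.45 on the log2 scale (adjusted p = 5.92e-06) and LRP5 one of 0.23 (adjusted p = 0.00224). In the GC-corrected fit LRP6 was at -0.23 and passed (adjusted p = 0.00159), and LRP5 was at 0.08 and did not (adjusted p = 0.227). Of the 6 listed genes of the L6 family, a separate group of 4-pass proteins once grouped with tetraspanins, only 2 were tested. Both rose, where 20.9% of all genes tested did. Among the 4 under the expression filter, TM4SF19 rose in the test with no filter (log2 fold change 1.46, adjusted p = 0.00445). In that test 3025 of 29836 genes rose. TM4SF5 averaged 6.68 ± 0.439 FPKM in TIPE libraries and 4.00 ± 0.748 FPKM in vector libraries (log2 fold change 0.82, SE 0.17, adjusted p = 0.000474). TM4SF1, a surface antigen of carcinomas, averaged 88.7 ± 6.60 FPKM in TIPE libraries and 77.0 ± 2.59 FPKM in vector libraries (0.27, adjusted p = 0.000824), a call lost at a common FPKM total (0.13, adjusted p = 0.149).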

How the data were processed

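Poly(A) RNA from SW480 cells was sequenced as 3 TIPE and 3 empty vector paired-end libraries, per the labels' protocols. The authors deposited 1 table with 2 columns per library, a count and an FPKM, per the file headers. Deposited counts were whole, summed to unlike totals and were used as raw counts. Each deposited FPKM equalled the count scaled by exonic length and library total, within 0.0051 in 100% of values. The submitters' processing notes name HISAT2 2.0.1 and hg38. The counting tool, annotation and strand setting were not given in sources used here. Coordinates are as deposited, on hg38. GC content and exon overlaps came from GENCODE release 29.

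Groups came from the treatment label and replicate numbers from the sample titles. The 14205 genes whose deposited FPKM averaged 0.5 or more across libraries were fitted with edgeR 4.0.16 (quasi-likelihood, TMM factors of 0.962 to 1.03, group as the only term), and p-values were adjusted over all of them by the Benjamini-Hochberg method. Members under the filter came from the same fit without it. Standard errors are the absolute log2 fold change over the square root of F. Tools were R 4.3.3, limma 3.58.1, DESeq2 1.42.0 and Python 3.11.15, and the fit was tested on simulated data. In the simulation 38% of genes changed 1.25-fold passed the threshold, 78% of those changed 1.5-fold and 98% of those changed 2-fold. Values in every library are printed for members called at an absolute log2 fold change of at least 0.5, the 5 most abundant, CD9, CD63, CD81, CD82, CD151 and the TspanC8 members. Up to 4 called partners with the smallest adjusted p of each list, and ADAM10, are named. TSPAN4, TSPAN32, TSPAN2, PDGFRB, the partners given with library values and other partners named were chosen after their values were seen. So were CD14, TM4SF19 and the neighbourhoods printed. The members, lists and tests were chosen with earlier results of these data known. SDs and intervals from 3 libraries a group, and floors from counts, cover those libraries and counting error only. Alternatives covered normalization, filter, test, pseudocount, scaling, GC and length, the replicate block and leaving out each library.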

Additional observations from a re-analysis of the deposited data

How the results depend on the processing

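The count of tetraspanins that rose was 9 and stayed at 7 to 10 under the 18 alternatives, and 1 fell except under 3 of them. The number that fell was 3 without TMM factors, 3 at a common FPKM total and 2 in limma on log2(FPKM + 0.1), where TSPAN14 was added and, in the first pair, TSPAN3 as well. Leaving out each library gave 9 to 10 higher and 1 lower tetraspanin, 6 to 11 higher and 11 to 15 lower partners, and 2205 to 3184 higher and 2286 to 3153 lower genes. Partners that rose numbered 5 in limma on log2(FPKM + 1), 5 with a pseudocount of 0.1 and 3 at a common FPKM total, where all genes that rose numbered 1912, 1902 and 1310. The cause was not tested. TSPAN6 reversed to -0.02 at a common FPKM total, and TSPAN15 to -0.03 there and to -0.09 with the GC and length trend removed, with or without the replicate block. ADAM10 reversed to 0.02 with that trend removed, with or without the block. Leaving out 1 library moved CD9 between -0.08 and 0.03, reversed without TIPE replicate 1 (0.03) or vector replicate 3 (6.5e-05), and ROM1 between -0.24 and 0.06, reversed without TIPE replicate 2 (0.03) or vector replicate 1 (0.06). CD82 did not pass in the replicate block with the trend removed (0.20, adjusted p = 0.0662).

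Whether the replicate numbers pair the libraries is not stated in the labels. Deviations of same-numbered libraries from their group means correlated at -0.00566, -0.0205 and -0.0513 across genes. With 3 libraries a group, such values cannot exclude pairing. In both groups replicate 2 held the most counts and replicate 3 the fewest. With the replicate block 9 tetraspanins rose and 1 fell, and 5601 genes passed in all, against 5902. Depth limits the 13 scarce members, where a few counts set any fold change.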
